A study of Homo sapiens with 4 samples.

Results

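The dense NRF2 summit clusters are 18 stretches of chromosome in which NRF2 ChIP-Seq summits of MDA-MB-231 mammospheres lay close together in SC and were few in ZMYND8 KO. They were chosen from the values themselves. A cluster is a run of summits of SC replicate 1 in which each 5 neighbours lie within 50 kb, with 1000 bp added at each end and with 5 or more summits of SC replicate 2 inside. Runs with 3 or more summits in both ZMYND8 KO lists, 1 run on chromosome 15 and the mitochondrial run were left out by the rule. Of 35 such runs of SC replicate 1, 18 remained, 11 fell to the ZMYND8 KO counts and 4 had too few summits in SC replicate 2. The members are all 313 summits of the 4 lists inside these clusters, of 9717 summits in all. The low number of ZMYND8 KO summits in the clusters and their density in SC were thus set by the choice and are described without a test.

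MDA-MB-231 is a human breast cancer cell line, here grown as mammospheres in MammoCult medium on ultralow attachment dishes. SC, the scrambled control, carries the genotype label parental, and ZMYND8 KO lacks the chromatin reader ZMYND8. Each group gave 2 libraries, precipitated with the same NRF2 antibody and with no treatment named in the labels. The labels do not say that the libraries came from separate cultures or whether the ZMYND8 KO line is 1 clone, so the spread between them may be technical. MACS2 was run by the authors, and the deposited lists hold the summit of each peak, its base of highest signal, with a score. The lowest score of any list, 1.32, is just above the 1.30 that a q of 0.05 gives on the −log10 scale, so scores were taken to be −log10 q. The lists of SC held 2030 and 6816 summits and those of ZMYND8 KO held 394 and 477, replicate 1 first here and below. Read counts were not analysed here and depth is unknown, and both the number of summits and their scores depend on it.

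NRF2 is the transcription factor of the oxidative stress response. It pairs with a small MAF protein on antioxidant response elements (AREs) near genes of the thioredoxin and glutathione systems, of NADPH production and of detoxification, and KEAP1 keeps it low in unstressed cells. AREs share the core TGACNNNGC and resemble the sites of AP-1 factors. ZMYND8 is a reader of modified histones that acts as a cofactor of transcription.

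The clusters span 5.31 to 90.8 kb (median 30.4 kb) and lie on 11 chromosomes. Positions were read as hg19. The labels name hg19 and hg38 without a role, and 93 summits have positions greater than the end of any GRCh38 gene on their chromosome. TXNRD1 and MAFG came with the rule. The genes at 12 other clusters were placed from general knowledge of hg19, since no annotation of that build was used, and 3 clusters were given no gene. The remaining cluster is counted in all totals and is not described on its own. Whether a summit lies in an exon, an intron or a promoter was therefore not determined. All 16 gene symbols at the clusters were listed by RefSeq on the chromosome of their cluster. Of 85 NRF2 target and regulator genes listed for the analysis, among them ZMYND8 as the gene under study, 4 were placed at clusters, namely TXNRD1, MAFG, TKT and ZMYND8. MYC and PVT1 stood for 2 of 39 genes listed as abundant in basal breast cancer cells. Of 18 listed AP-1 and CNC family genes, 0 were placed at a cluster. The listed genes were not searched against the cluster positions, so genes that were not placed may still lie at a cluster. No share over all genes was computed for comparison.

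TXNRD1 encodes thioredoxin reductase, and MAFG encodes a small MAF partner of NRF2. Their promoter windows are shown because they are the genes of the clusters best known as NRF2 targets. The windows run from 250 bases before to 50 after a RefSeq start in GRCh38.p14, 5′ to 3′, with any TGACNNNGC core on either strand in capitals.
TXNRD1, chr12:104215529-104215828, plus strand: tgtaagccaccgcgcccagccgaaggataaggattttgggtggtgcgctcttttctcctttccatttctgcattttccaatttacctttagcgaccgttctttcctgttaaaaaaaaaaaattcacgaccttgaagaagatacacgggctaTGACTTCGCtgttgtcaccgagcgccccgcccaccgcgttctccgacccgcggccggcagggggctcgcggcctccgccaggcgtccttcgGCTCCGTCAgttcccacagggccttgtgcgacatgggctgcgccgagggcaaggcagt
TXNRD1, chr12:104286782-104287081, plus strand: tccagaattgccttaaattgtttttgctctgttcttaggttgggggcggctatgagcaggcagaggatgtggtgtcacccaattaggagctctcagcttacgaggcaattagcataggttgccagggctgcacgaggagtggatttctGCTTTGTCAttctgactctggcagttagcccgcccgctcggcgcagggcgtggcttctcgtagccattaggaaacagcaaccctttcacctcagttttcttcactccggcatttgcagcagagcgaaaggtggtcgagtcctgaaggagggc
MAFG, chr17:81927686-81927985, minus strand: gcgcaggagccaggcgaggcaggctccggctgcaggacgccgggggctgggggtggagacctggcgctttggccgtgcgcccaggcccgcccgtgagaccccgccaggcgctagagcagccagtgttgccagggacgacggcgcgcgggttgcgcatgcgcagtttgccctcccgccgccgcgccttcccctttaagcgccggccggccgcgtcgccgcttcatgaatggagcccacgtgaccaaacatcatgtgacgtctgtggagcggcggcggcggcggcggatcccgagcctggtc

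The first TXNRD1 window held 2 cores, the second held 1, and the MAFG window held none. Among the cluster genes outside chromosome 8, all 11 had RefSeq windows, and 4 of their 18 windows, from 3 genes, held the core. Of all 35116 RefSeq windows, 13.3% held it. A match is a description of these letters. Which summits lie in these windows was not determined, because the lists and the windows are on different builds. The TXNRD1 windows start further apart than the TXNRD1 cluster is long, so they cannot both lie inside it.

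The clusters held 120 summits of SC replicate 1 and 157 of SC replicate 2, against 19 of ZMYND8 KO replicate 1 and 17 of ZMYND8 KO replicate 2. The group means were 138.5 ± 26.2 in SC and 18 ± 1.41 in ZMYND8 KO (SD, n = 2 each), a ratio of 0.130. Over all summits of the lists the ratio was 0.0985. Once every list was shortened to its 394 highest-scoring summits, the length of the shortest list, the clusters held 23 and 17 summits of SC and 19 and 13 of ZMYND8 KO, a ratio of 0.8. At equal length the lists have the same total by construction, so SC and ZMYND8 KO cannot differ over all summits. The rise of the cluster ratio was thus largely fixed by the cut, and its cause was not tested. The 12 dense runs that the rule left out held 31.0% and 24.9% of the full ZMYND8 KO lists. In the full SC lists they held 7.83% and 2.63%. The counts of SC and ZMYND8 KO in the clusters overlapped at equal length.

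No cluster had more summits in a ZMYND8 KO library than in an SC library. The rule largely fixed this, since it asks for 5 or more summits in each SC list. It also drops runs with 3 or more summits in both ZMYND8 KO lists. ZMYND8 KO held no summit at CCND3, upstream of PTK2 and at PLEC, where the SC libraries together held 12, 12 and 22. At 4 clusters ZMYND8 KO had 1 summit over both libraries, at 6 it had 2, and at the other 5 it had 3 or more. Both ZMYND8 KO libraries had a summit in 10 clusters. SC replicate 2 exceeded SC replicate 1 in 13 clusters, equalled it in 4 and held fewer in 1, the cluster on chromosome 21. By the counts of SC replicate 2, the cluster on chromosome 2 was just inside the rule, with 5 summits. By the counts of ZMYND8 KO, TKT and ZMYND8 were just inside, with 2 and 3 and with 4 and 2 summits. Chromosome 16 had 3 and 0. Many clusters also had 5 summits of SC replicate 1, the fewest that make a run. Among those described these were chromosome 2, CIDEC and IL17RE, TKT, FKBP5, CCND3, MYC, CDK5RAP2, MAFG and MIR23AHG. Just outside lay runs on chromosomes 1, 9 and 17 with 4 summits of SC replicate 2. A run on chromosome 7 with 4 and 3 summits in ZMYND8 KO was also just outside.

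**Figure D1:**
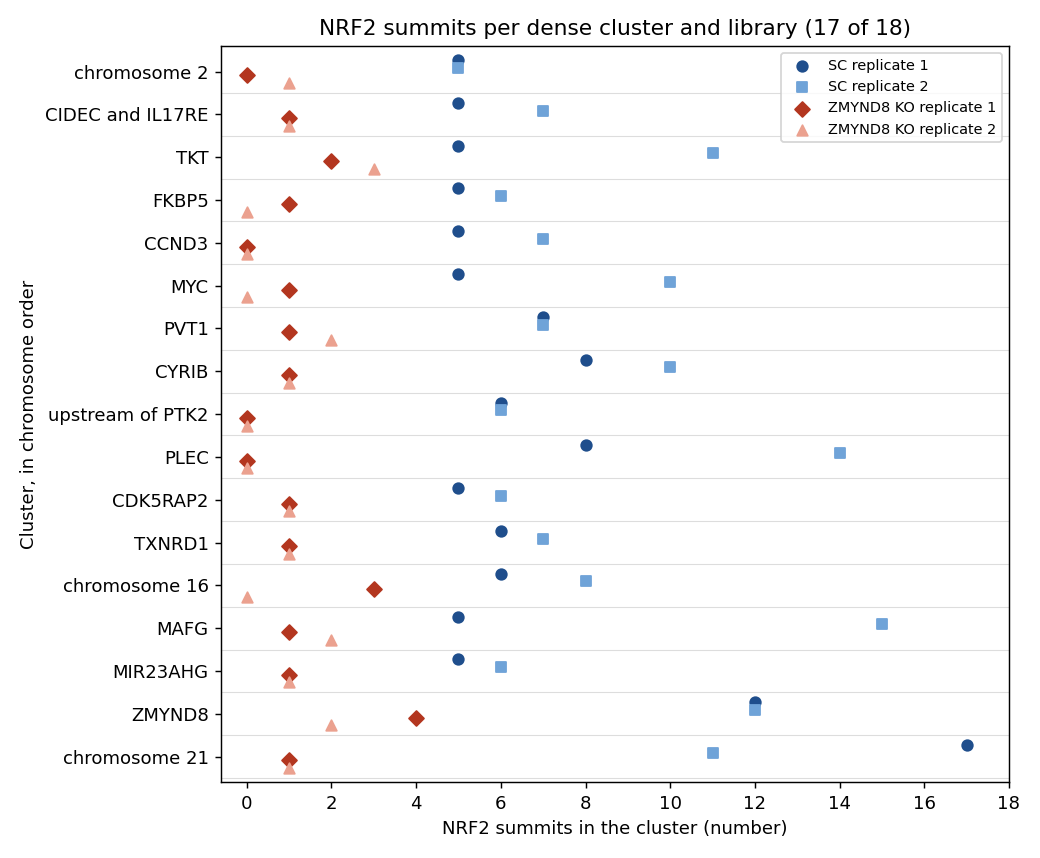
Number of NRF2 summits (x axis) in each of the 17 clusters described (y axis, in chromosome order) and each library, with 1 point for each library. SC points lie at 5 or more in every cluster, as the rule requires, and ZMYND8 KO points lie between 0 and 4.

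The clusters on chromosomes 16 and 21 stood apart from the others by position. They lay within 10 kb of stretches of 12.4 and 3.17 Mb without a summit of any list, as 9 of the 12 dense runs left out by the rule did beside stretches of over 3 Mb. The other 16 clusters lay at least 3.85 Mb from such a stretch. The set as a whole can therefore not be described as lying on chromosome arms away from such stretches. These 2 clusters held 23 and 19 SC summits and 4 and 1 ZMYND8 KO summits. Without them the clusters held 97 and 138 SC summits and 15 and 16 ZMYND8 KO summits, and the ratio was 0.132. In the 12 dense runs that the rule left out, the ratio was 0.713, which the rule on ZMYND8 KO summits largely fixed.

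The position of each summit shows what the counts do not: most clusters held 1 or a few high-scoring sites, which were also called in ZMYND8 KO, and many low-scoring summits around them, which were not. A summit of another list within 200 bp was counted as shared. Of the SC replicate 1 members, 100 of 120 (83.3%, Wilson 95% interval 75.65% to 88.9%) had no ZMYND8 KO summit within that distance, against a background of 77.8% of the whole list. Of the SC replicate 2 members, 133 of 157 (84.7%, 78.3% to 89.5%) had none, against a background of 93.0%. The members thus lay above the background in 1 SC library and below it in the other. The rule left out runs rich in ZMYND8 KO summits, and the background includes those runs. The shares of the members were therefore partly set by the choice. With a score of at least 10, 38.5% and 30.8% of the members had none, against backgrounds of 35.7% and 44.6%. These intervals cover counting error only and take no account of the closeness of neighbouring summits.

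Sharing rose with the score. In SC replicate 1 all 11 members with a score of 20 or more had a ZMYND8 KO summit, as did 5 of 15 with scores from 10 to under 20, 4 of 52 from 5 to under 10 and 0 of 42 under 5, which allows a share of up to 7.14%. The same classes of SC replicate 2 gave 13 of 14, 5 of 12, 3 of 40 and 3 of 91. Outside all dense runs, the shares from the highest class to the lowest were 81.6%, 42.4%, 14.2% and 2.83% in SC replicate 1 and 80.8%, 32.6%, 5.73% and 0.916% in SC replicate 2. The order of the classes was thus the same in the clusters and outside them. The 20 shared members of SC replicate 1 had a median score of 21.2 and the 100 others one of 5.56, and in SC replicate 2 the medians were 20.3 and 4.58.

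**Figure D2:**
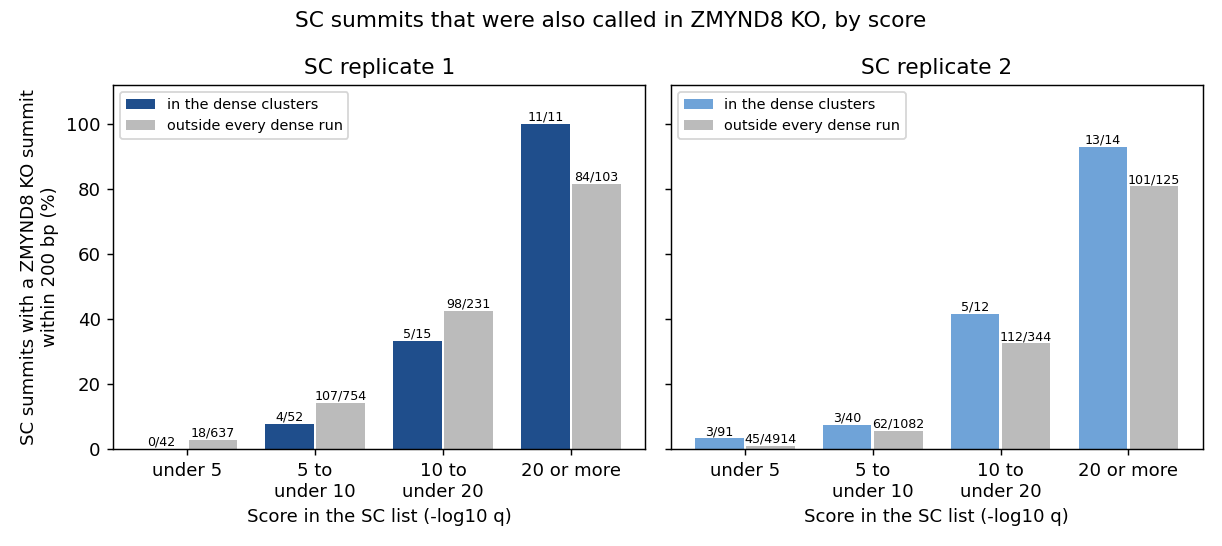
Percentage of summits of each SC list that had a ZMYND8 KO summit within 200 bp (y axis) in 4 classes of the SC score (x axis, −log10 q), for members of the clusters (blue) and for summits outside every dense run (grey), with the numbers above the bars. In both SC libraries the bars rise from the lowest class to 100% or 92.9% in the highest class for the clusters.

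Seen from ZMYND8 KO, most of the few summits that remained lay near SC summits, as over the whole lists. The clusters were chosen for their many SC summits, so nearness to one was partly set by the choice. All 19 members of ZMYND8 KO replicate 1 and 16 of 17 of ZMYND8 KO replicate 2 had an SC summit within 200 bp, against backgrounds of 91.1% and 88.1%. The median distance to it was 18 and 36 bp. Grouping members within 200 bp gave 203 sites, of which 72 were in both SC lists, 47 in SC replicate 1 alone of the 2 SC lists, 83 in SC replicate 2 alone and 1 in neither. A ZMYND8 KO summit was present at 18 of the 72 sites of both SC lists (25%), against a background of 35.0% over the whole lists, and at 8 of the 130 sites of a single SC list (6.15%), against 1.55%. The contrast between sites of both SC lists and of 1 was thus present over the whole lists too. The backgrounds include the runs that the rule left out for their ZMYND8 KO summits, so the lower share of 25% was partly set by the choice. There were 8 sites in all 4 lists (3.94%, against 3.10% of all sites), each in a different cluster.

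The highest-scoring summit of SC replicate 1 had a ZMYND8 KO summit in 13 of the 18 clusters, in 8 of them from both ZMYND8 KO libraries. For the highest-scoring summit of SC replicate 2 the number was also 13. The SC libraries placed their highest summits within 200 bp of each other in 12 clusters. In SC replicate 1 the highest score of a cluster ranged from 6.90 to 56.9 (median 19.6) and was typically 1.98 times the next one (median).

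**Figure D3:**
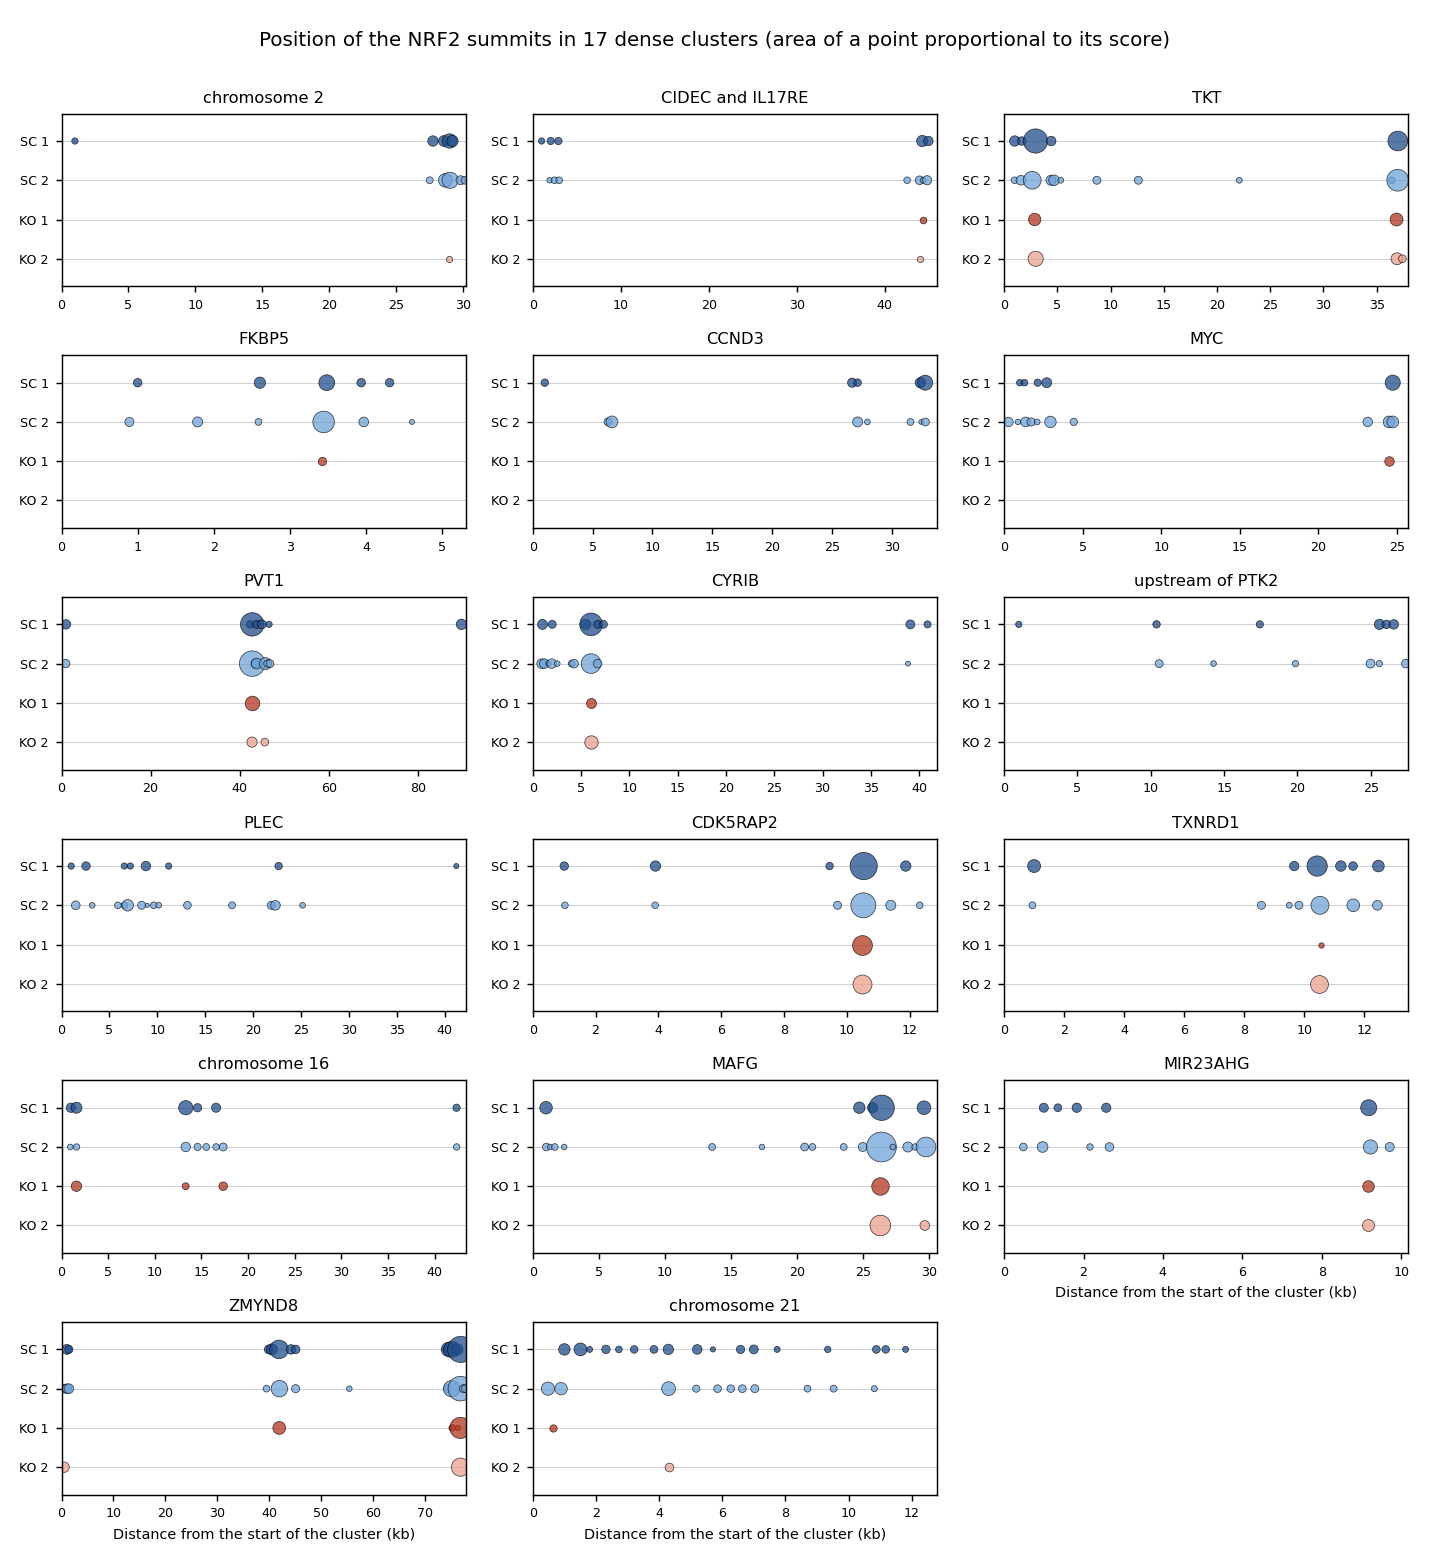
Position of every summit in each of the 17 clusters described (x axis, distance from the start of the cluster in kb) in the 4 libraries (rows), with the area of a point proportional to its score. The largest SC points at CDK5RAP2, MAFG, TXNRD1, PVT1, CYRIB, MIR23AHG and ZMYND8 stand above points of both ZMYND8 KO libraries, and the small points beside them mostly do not. At MAFG and ZMYND8 other large SC points stand above a point of a single ZMYND8 KO library.

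The NRF2 target and regulator genes come first. TXNRD1 had 6 and 7 summits in SC and 1 and 1 in ZMYND8 KO, over chr12:104670224-104683689. Its top site, at 104680649 in SC replicate 1, scored 31.6 and 25 in SC and 2.23 and 24.5 in ZMYND8 KO. The ZMYND8 KO libraries thus disagreed at this site, which ranked 391 of 394 in replicate 1 and 60 of 477 in replicate 2. The other SC summits scored 2.63 to 12.8, and the site near 104671224, with 12.8 and 3.65 in SC, had its nearest ZMYND8 KO summit 9476 bp away.

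MAFG, over chr17:79855186-79885791, had 5 and 15 summits in SC and 1 and 2 in ZMYND8 KO. The highest MAFG site, at 79881590, scored 49.5 and 68.2 in SC and 23.5 and 32.6 in ZMYND8 KO, and the score of 68.2 was the highest of all members. A neighbouring site at 79884791 scored 14.4 and 29.9 in SC, with a ZMYND8 KO summit in replicate 2 alone (7.30). The remaining 13 SC replicate 2 summits of this cluster scored 2.39 to 7.72, and no ZMYND8 KO summit lay within 200 bp of any of them.

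TKT encodes transketolase of the pentose phosphate pathway. Its cluster, chr3:53267412-53305399, had 5 and 11 summits in SC and 2 and 3 in ZMYND8 KO, and held a pair of strong sites, at 53270365 in SC replicate 1 and 34019 bp away at 53304384 in SC replicate 2. The first scored 44.9 in SC replicate 1 and 11.8 and 17.6 in ZMYND8 KO. SC replicate 2 placed its summit 312 bp away, at 53270053 with a score of 24.3, outside the distance for sharing. The second was called in all 4 libraries, with 29.8 and 36.0 in SC and 12.8 and 10.98 in ZMYND8 KO. Both sites were thus called in every library once the shifted summit is counted.

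ZMYND8, the gene knocked out in ZMYND8 KO, lay in a cluster of 12 and 12 summits in SC and 4 and 2 in ZMYND8 KO over chr20:45944294-46022186, the most ZMYND8 KO summits of any cluster. Its top site at 46021186 scored 52.7 and 46.7 in SC and 34.4 and 25.5 in ZMYND8 KO. A site at 45986180 scored 26.6 and 20.9 in SC and 12.7 in ZMYND8 KO replicate 1, with none in replicate 2. A site at 46019449, with 20.1 and 20.5 in SC, had a ZMYND8 KO summit in replicate 1 alone (3.39). No ZMYND8 KO summit was shared at 16 of the 24 SC summits (66.7%), against backgrounds of 77.8% and 93.0% of the whole SC lists.

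On chromosome 8, 5 clusters held 34 of the 120 members of SC replicate 1 (28.3%) and 47 of the 157 of SC replicate 2 (29.9%). Of the whole lists, 8.28% and 6.94% lay on that chromosome. By the rule each cluster brings 5 or more neighbouring summits of each SC list. The member shares thus largely restate that 5 of the 18 clusters lay there, and no enrichment was tested. MYC encodes a transcription factor that drives cell growth, and PVT1 is the long noncoding RNA gene next to it. At MYC (chr8:128748331-128774066) SC had 5 and 10 summits and ZMYND8 KO had 1 and 0. The summit at 128773066, highest in both SC libraries, scored 17.6 and 10.7 in SC, and the ZMYND8 KO summit lay 233 bp away with a score of 6.96, within 1 bp of another SC replicate 2 summit of 10.6. The 4 SC replicate 1 summits at the other end scored 3.33 to 7.56.

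PVT1 had the longest cluster, chr8:128821282-128912084, with 7 and 7 summits in SC and 1 and 2 in ZMYND8 KO. Its top site at 128864097 scored 42.1 and 49.8 in SC against 16.4 and 8.0 in ZMYND8 KO, and the next highest SC score was 11.2. CYRIB, whose product binds the GTPase RAC1, had 8 and 10 summits in SC and 1 and 1 in ZMYND8 KO (chr8:131006163-131048031). There the top site at 131012191 scored 39.5 and 29.8 in SC and 7.68 and 13.8 in ZMYND8 KO, and all other SC summits scored 8.06 or less. Both PVT1 and CYRIB thus had a single strong site, called in all 4 libraries and lower in both ZMYND8 KO libraries than in either SC library. The same order of scores held at every other site called in all 4 libraries, and scores depend on the unknown depth.

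The last clusters of chromosome 8 had no strong site and no ZMYND8 KO summit. Upstream of PTK2, the focal adhesion kinase gene, chr8:142019929-142047501 held 6 and 6 SC summits with highest scores of 8.06 and 6.13. At PLEC, which encodes the cytoskeletal linker plectin, chr8:145002900-145045101 held 8 and 14, with highest scores of 6.90 and 10.1. CCND3, the cyclin D3 gene, was the other cluster without a ZMYND8 KO summit (chr6:41902562-41936370, 5 and 7 in SC). Its highest SC replicate 1 summit, 17.3 at 41935370, scored 4.79 in SC replicate 2, whose own highest, 10.7, lay 26188 bp away. At these clusters the SC scores were thus low or differed between the SC libraries.

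CDK5RAP2 encodes a centrosomal protein, and its cluster (chr9:123155462-123168342) held the highest SC replicate 1 score of all members. SC had 5 and 6 summits there and ZMYND8 KO had 1 and 1. The top site at 123166002 scored 56.9 and 47.7 in SC and 30.1 and 27.7 in ZMYND8 KO, and all other SC summits scored 8.31 or less, with no ZMYND8 KO summit. Its highest SC replicate 1 score was 6.84 times the next, the largest such ratio of the 18 clusters.

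MIR23AHG, the host gene of miR-23a, miR-27a and miR-24-2, had 5 and 6 summits in SC and 1 and 1 in ZMYND8 KO (chr19:13948637-13958821). The highest site, at 13957821, scored 19.8 and 15.5 in SC and 10.4 and 10.98 in ZMYND8 KO. FKBP5, which encodes a cochaperone of steroid receptors, had the shortest cluster (chr6:35570876-35576184), with 5 and 6 summits in SC and 1 and 0 in ZMYND8 KO. Its top site at 35574358 scored 19.3 and 35.6 in SC and 5.32 in ZMYND8 KO replicate 1.

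At CIDEC, a lipid droplet gene, and IL17RE, an interleukin-17 receptor gene, chr3:9910043-9955991 held 5 and 7 in SC and 1 and 1 in ZMYND8 KO, and no summit scored above 9.77. The ZMYND8 KO summits scored 3.39 and 2.96, within the range of the SC scores there.

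Of the clusters with no gene named, that on chromosome 2 (chr2:241298308-241328547) had 5 and 5 summits in SC and 0 and 1 in ZMYND8 KO. The highest site there, at 241327320, scored 15.98 and 20.1 in SC and 2.97 in ZMYND8 KO replicate 2. Chromosome 16 (chr16:46390388-46433740) had 6 and 8 in SC and 3 and 0 in ZMYND8 KO, the largest difference between the ZMYND8 KO libraries. Its site at 46403709 scored 15.7 and 6.94 in SC and 3.68 in ZMYND8 KO replicate 1. A second site, at 46391990, scored 9.34 and 3.11 in SC and 8.31 in ZMYND8 KO replicate 1. The third ZMYND8 KO summit, at 46407715, scored 5.56, at the position of an SC replicate 2 summit of 4.90 with none in SC replicate 1. At the latter 2 sites the ZMYND8 KO score was above that of SC replicate 2. The cluster on chromosome 21 (chr21:14338173-14350980) was the densest in SC replicate 1, with 17 and 11 in SC and 1 and 1 in ZMYND8 KO, and its highest SC scores were 12.7 and 14.6, 2792 bp apart. No single site stood out on chromosome 21, where 1.25 was the ratio of the highest to the next SC replicate 1 score.

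Of the 26 members with scores of at least 10 in each SC library, 10 in SC replicate 1 and 8 in SC replicate 2 had no shared ZMYND8 KO summit. The highest were the shifted TKT summit of SC replicate 2 (24.3, with a ZMYND8 KO summit 231 bp away), the top MYC summit of SC replicate 1 (17.6, 233 bp away) and the top CCND3 summit of SC replicate 1 (17.3). For CCND3 the nearest ZMYND8 KO summit was far outside the cluster.

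Within the clusters, neighbouring summits lay a median of 899 bp apart in SC replicate 1 (102 distances, quartiles 579 and 3128 bp) and 826 bp in SC replicate 2 (139 distances, quartiles 508 and 2174 bp). Over the whole lists the medians were 276 and 80.2 kb. Distances of 1000 bp or less made up 53 of 102 and 81 of 139, and the shortest were 227 and 218 bp. The run rule sets an upper limit on these distances and no lower one, so they are a description.

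The summits were not spread evenly. In each cluster the largest group of SC summits with gaps of 2000 bp or less was taken, the first where groups tied. These groups held 190 of all 277 SC members (68.6%) over a median of 3.80 kb (1.25 to 11.3 kb). In 15 of 18 clusters the group taken included the highest summit of SC replicate 1. A gap of over 10000 bp in SC replicate 1 split 11 of the clusters. At PVT1 the largest such gap was 43202 bp, while at FKBP5 none exceeded 1604 bp and on chromosome 21 none exceeded 1603 bp. Of the SC members other than the top site, 52 of 102 in SC replicate 1 and 79 of 141 in SC replicate 2 lay within 5000 bp of it. The largest group did not include the highest summit of SC replicate 1 at MYC and at MIR23AHG. At CIDEC and IL17RE the group taken did not include it either, but another group of the same size did. The largest group held between 41.7% and 50% of the SC summits at CCND3, ZMYND8, CIDEC and IL17RE and upstream of PTK2. It held all of them at FKBP5 and on chromosome 21.

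**Figure D4:**
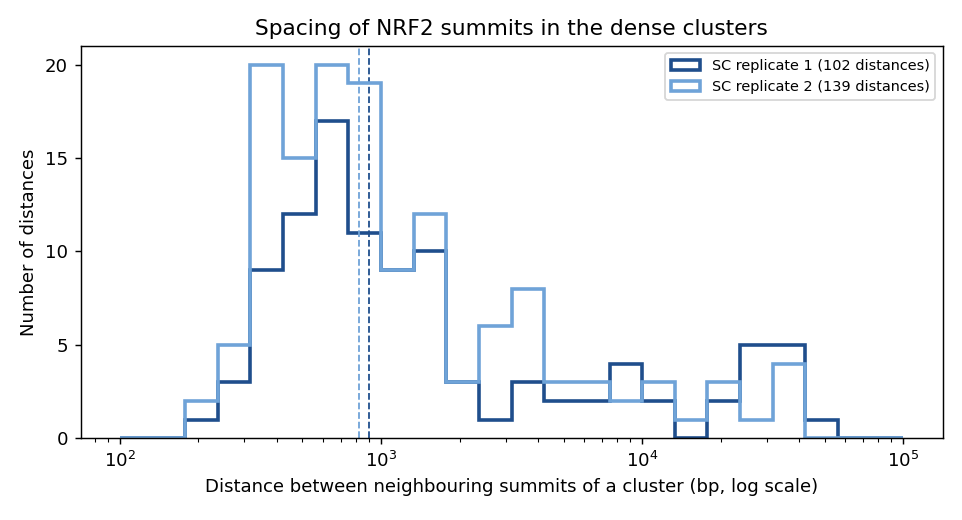
Histogram of the distances between neighbouring summits within a cluster (x axis, bp, log scale) for both SC libraries, with the medians as dashed lines. Most distances lie between the shortest of 218 bp and 2000 bp, and a second, smaller group lies above 10000 bp.

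The SC libraries shared positions in the clusters unevenly. Of the SC replicate 1 members, 73 of 120 (60.8%) had an SC replicate 2 summit within 200 bp, against a background of 58.7%, and of the SC replicate 2 members 74 of 157 (47.1%) had one of SC replicate 1, against a background of 17.6%. The rule asks for summits of both SC lists, so the second share was raised by the choice. Over the 73 pairs, which share the cell line and the order of sites within clusters, the scores of both libraries had a Spearman's rho of 0.554. The members of SC replicate 1 had a median score of 6.38 (6.16 in the whole list) and those of SC replicate 2 of 4.92 (3.65), and 78.3% and 83.4% scored under 10, against 76.7% and 90.9% of the whole lists.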

How the data were processed

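NRF2 ChIP-Seq of MDA-MB-231 mammospheres gave 4 summit lists, 2 of SC and 2 of ZMYND8 KO, grouped by title. The submitters' processing notes name FastQC 0.11.2, Bowtie2 2.2.3, Picard 1.127, MACS2 2.0.10, hg19 and hg38, without roles. The authors called peaks per library, and the deposited score was read as the −log10 q-value. The control library and the handling of duplicates are not given in the sources used here. Depth is unknown, so no depth-based precision was computed.

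From the lists were computed the members, their counts, nearest distances (shared within 200 bp), spacings and scores, with Wilson 95% intervals, which cover counting error only. No test was run, since the values chose the members. The members and lists were chosen with earlier results of these data known. Clusters were named by the genes placed there, and 1 is not reported on its own here. The planned rule of overlap with gene bodies, the ARE cores at summits and the distances to transcription start sites need an hg19 genome or annotation, not used here. Alternatives changed the run rule, distance, score minimum, merging, list length, chromosomes and libraries. The search for runs was tested on simulated data and found all planted runs. Sequences came from RefSeq (GRCh38.p14). The scripts ran on Python 3.11.15 with matplotlib 3.10.9, pandas 2.3.3, scipy 1.17.1 and numpy 2.4.6.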

Additional observations from a re-analysis of the deposited data

How the results depend on the processing

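The number of clusters was 18. It was 29 with 4 neighbours within 50 kb and 8 with 6, and 13 to 20 under the other 5 alternatives. The rule asks for many SC summits and leaves out runs rich in ZMYND8 KO summits, so a ratio below 1 was largely set by the choice. The ratio of summits, ZMYND8 KO to SC, was 0.130 and below 1 under all 17 alternatives. It was 0.105 when runs with 2 or more ZMYND8 KO summits in both lists were dropped, 0.103 with runs found in SC replicate 2, 0.327 with a score of at least 10, 0.155 with summits within 500 bp counted once, 0.153 without chromosome 8 and 0.8 with each list cut to the shortest length. Leaving out each library gave 0.115 to 0.15. Pairing by replicate number (replicate block) gave 0.133, and nothing shows that the numbers pair the libraries.

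The share of SC replicate 1 members without a ZMYND8 KO summit (83.3%) was 85.7% with 6 neighbours, 86.4% and 81.0% with runs dropped at 2 or 5 ZMYND8 KO summits, 85%, 78.3% and 61.7% with distances of 100, 500 and 1000 bp, 38.5% with a score of at least 10, 86.7% to 89.2% without 1 ZMYND8 KO library and 79.1% without chromosome 8. That of SC replicate 2 (84.7%) was 87.3% and 82.7% with 4 and 6 neighbours, 85.9% within 100 kb, 85.8% and 82.7% with runs dropped at 2 or 5, 89.5% with runs found in SC replicate 2, 87.3%, 80.9% and 65.6% with 100, 500 and 1000 bp, 30.8% with a score of at least 10, 89.2% to 90.4% without 1 ZMYND8 KO library, 86.2% without chromosomes 16 and 21 and 81.8% without chromosome 8. The median spacings (899 and 826 bp) became 1050 and 1293.5 bp with a score of at least 5, and 1450.5 and 1364 bp with summits within 500 bp counted once. A score minimum and merging remove summits by construction, and lists cut to the shortest length have equal totals by construction. The cause of the other moves was not tested. The alternatives on single chromosomes and on list length were chosen after seeing the data. Those on ARE cores and transcription start sites were not run, for want of an hg19 genome. With no read counts, a summit that was not called cannot be told apart from one missed at low depth.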
